A study of Homo sapiens with 10 samples.

Results

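The genes described here encode splicing factors, and they were taken by name: every RefSeq protein-coding gene on GRCh38 whose symbol starts with HNRNP, SRSF, SF3A, SF3B, SNRP, U2AF or PRPF. The rule finds 74 of 19974 protein-coding genes. They comprise 26 hnRNP genes, 12 SR protein genes, 9 SF3A and SF3B genes, 12 SNRP genes, 3 U2AF genes and 12 PRPF genes. The rule uses names and no measured value, although the set was proposed with earlier results of these data known.

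Chromatin immunoprecipitation followed by sequencing (ChIP-seq) had been carried out in Kelly cells, an established neuroblastoma line with extra copies of MYCN and an adrenergic identity. RCOR2 was recovered through a FLAG tag on an RCOR2 transgene after 48 h of doxycycline at 2 µg/mL, which switches the transgene on, so its level is not that of the cell's own RCOR2. RCOR1 and RCOR3 were recovered with antibodies to the cells' own proteins in Kelly cells without doxycycline. LSD1 (KDM1A) was recovered from a Kelly derivative engineered to express an shRNA against RUNX1T1 under doxycycline control, which was left without doxycycline, so the LSD1 libraries differ from the others in the cells as well as in the antibody. The reference for tagged RCOR2 is a FLAG immunoprecipitation from the same transgenic cells without doxycycline, called uninduced FLAG below. Each of these 5 groups has 2 libraries, and a time of 48 h is given for every library. The labels do not say whether the 2 came from separate cultures.

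RCOR1, RCOR2 and RCOR3 are the CoREST corepressors, scaffold proteins that join the histone demethylase LSD1 to histone deacetylases and tether both to chromatin. The complex removes methyl groups from histone H3 lysine 4 and acetyl groups from histone tails, and it is best known for keeping neuronal genes silent through the repressor REST. Splicing factors remove introns from nascent transcripts: snRNPs with their Sm proteins and the SF3 and PRPF proteins form the spliceosome, U2AF marks the acceptor end of an intron, and SR proteins and hnRNPs bind exons and introns and tip the choice between alternative splice sites.

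A gene was taken as occupied by a protein when each of its 2 libraries held a deposited peak within 2 kb of either end of the gene. The value of a peak is its fold enrichment as the authors' peak caller gave it. Where a gene had several peaks in a library, the highest was used. Fold values order the peaks within a library and were not compared between libraries, so a percentile among all peaks of the same library stands beside them. On chromosomes 1 to 22 and X, induced RCOR2 had 75643 and 59726 peaks in its libraries and RCOR1 had 49250 and 18297. RCOR3 had 13644 and 27786, LSD1 had 19392 and 19667, and uninduced FLAG had 10253 and 14958. Read depth is unknown because the lists hold no counts. Peaks do not measure transcription, so the cell identity could not be checked through them. Replicate numbers follow the labels, while the peak names inside the RCOR1 replicate 2, RCOR3 replicate 2 and all FLAG lists carry other replicate names, and values matched by replicate number rest on the labels. With 2 libraries a group no exact permutation test can reach 0.05, so counts are set beside the share of all protein-coding genes and carry no p.

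The promoters on which the comparisons below turn are shown first. Each is the 300 bases that run from 250 before to 50 after the main start of the gene in the RefSeq table for GRCh38.p14, 5′ to 3′ along the gene. Capitals mark matches on either strand to any of 9 short motifs named further on. HNRNPU, SNRPA1 and SRSF4 had the highest ranks for induced RCOR2. PRPF6 ranked highest for RCOR1, HNRNPD for RCOR3 and SRSF8 for LSD1. HNRNPL ranked highest for induced RCOR2 among genes with no uninduced FLAG peak, and HNRNPCL1 had no peak in any library.
HNRNPU: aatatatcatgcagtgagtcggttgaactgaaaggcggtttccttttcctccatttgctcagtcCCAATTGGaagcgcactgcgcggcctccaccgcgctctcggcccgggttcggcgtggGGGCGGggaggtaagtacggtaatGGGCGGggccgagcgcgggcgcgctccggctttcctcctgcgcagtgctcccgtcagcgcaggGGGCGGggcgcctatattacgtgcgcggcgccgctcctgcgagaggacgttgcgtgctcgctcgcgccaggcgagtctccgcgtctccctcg
SNRPA1: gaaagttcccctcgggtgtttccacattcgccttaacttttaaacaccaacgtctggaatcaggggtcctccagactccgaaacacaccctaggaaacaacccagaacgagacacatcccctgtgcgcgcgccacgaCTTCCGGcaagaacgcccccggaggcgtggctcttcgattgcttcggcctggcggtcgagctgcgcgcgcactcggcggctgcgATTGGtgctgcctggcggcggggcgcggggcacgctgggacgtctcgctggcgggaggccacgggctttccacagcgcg
SRSF4: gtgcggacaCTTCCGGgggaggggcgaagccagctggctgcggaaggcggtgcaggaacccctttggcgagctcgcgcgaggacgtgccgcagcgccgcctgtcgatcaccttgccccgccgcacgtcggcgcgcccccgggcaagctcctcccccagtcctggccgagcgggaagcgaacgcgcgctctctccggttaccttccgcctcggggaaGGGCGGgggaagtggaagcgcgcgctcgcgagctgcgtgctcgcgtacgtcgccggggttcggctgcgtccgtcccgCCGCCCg
PRPF6: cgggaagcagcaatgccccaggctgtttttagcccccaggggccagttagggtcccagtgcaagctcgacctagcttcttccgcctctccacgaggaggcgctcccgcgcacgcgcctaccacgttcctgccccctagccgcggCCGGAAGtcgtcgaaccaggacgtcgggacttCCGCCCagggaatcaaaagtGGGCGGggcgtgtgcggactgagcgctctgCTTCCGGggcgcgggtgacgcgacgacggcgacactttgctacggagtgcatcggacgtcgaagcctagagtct
HNRNPD: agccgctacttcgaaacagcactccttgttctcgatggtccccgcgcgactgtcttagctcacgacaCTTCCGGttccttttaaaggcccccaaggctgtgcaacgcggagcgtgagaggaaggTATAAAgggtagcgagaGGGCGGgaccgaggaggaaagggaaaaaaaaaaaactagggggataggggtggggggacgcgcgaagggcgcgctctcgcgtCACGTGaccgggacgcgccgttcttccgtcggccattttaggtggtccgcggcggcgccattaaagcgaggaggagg
SRSF8: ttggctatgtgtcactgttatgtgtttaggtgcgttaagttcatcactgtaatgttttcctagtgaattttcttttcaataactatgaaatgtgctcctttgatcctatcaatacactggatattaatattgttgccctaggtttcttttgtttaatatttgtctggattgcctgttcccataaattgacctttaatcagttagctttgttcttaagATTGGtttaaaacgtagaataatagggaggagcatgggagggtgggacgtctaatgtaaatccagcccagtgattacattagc
HNRNPL: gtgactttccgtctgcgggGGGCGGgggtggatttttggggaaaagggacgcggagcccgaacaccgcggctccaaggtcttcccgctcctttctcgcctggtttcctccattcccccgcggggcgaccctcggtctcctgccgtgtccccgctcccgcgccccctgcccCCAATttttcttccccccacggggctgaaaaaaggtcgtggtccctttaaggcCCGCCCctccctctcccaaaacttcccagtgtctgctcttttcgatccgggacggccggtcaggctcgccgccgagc
HNRNPCL1: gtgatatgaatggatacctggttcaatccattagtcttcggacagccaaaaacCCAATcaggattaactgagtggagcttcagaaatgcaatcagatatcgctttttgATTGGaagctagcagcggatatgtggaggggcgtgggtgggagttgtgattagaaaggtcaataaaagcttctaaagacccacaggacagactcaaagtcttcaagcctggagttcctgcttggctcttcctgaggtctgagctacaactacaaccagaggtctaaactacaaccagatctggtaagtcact

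HNRNPU lies on the minus strand and its window is chr1:244864494-244864793. The windows are chr15:101295199-101295498 for SNRPA1 (minus strand), chr1:29181851-29182150 for SRSF4 (minus) and chr20:63980882-63981181 for PRPF6 (plus). Those of HNRNPD and SRSF8 are chr4:82373942-82374241 (minus) and chr11:95066627-95066926 (plus). Those of HNRNPL and HNRNPCL1 are chr19:38852298-38852597 (minus) and chr1:12848671-12848970 (minus). In 6 of the 8 windows G+C is high and CpG dinucleotides are frequent. The SRSF4 window has 74.7% G+C with 48 CpG, that of HNRNPU 67% with 40, that of HNRNPL 66.3% with 28, that of PRPF6 66.3% with 34, that of SNRPA1 65% with 34 and that of HNRNPD 60.7% with 33. The exceptions are SRSF8, with 36% G+C and 3 CpG, and HNRNPCL1, with 45.3% and 4.

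Most splicing factor genes carried induced RCOR2, and most of those carried RCOR1. Induced RCOR2 occupied 65 of the 74 genes (87.8%), against 71.8% of all protein-coding genes. RCOR1 occupied 51 (68.9%), against 33% of all genes, and RCOR3 occupied 25 (33.8%), against 13.1%. LSD1 occupied 3 genes (4.05%), against 4.34% of all genes, a share close to the background. All 51 genes with RCOR1 and all 25 with RCOR3 were among the 65 with induced RCOR2. Such nesting was general: over all genes, induced RCOR2 was at 6478 of the 6583 with RCOR1 and 2583 of the 2624 with RCOR3. Of the 65, 78.5% carried RCOR1, against 45.2% of all genes with induced RCOR2, and 38.5% carried RCOR3, against 18%.

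In single libraries, too, induced RCOR2 and RCOR1 were at more of these genes than RCOR3, and RCOR3 at more than LSD1. Induced RCOR2 had a peak at 65 and 68 of the 74 genes in replicates 1 and 2, against 75.3% and 75.5% of all genes, and in either library at 68 (91.9%, against 79%). RCOR1 had 65 and 52, against 56.8% and 34.4% of all genes, and in either library 66 (89.2%, against 58.2%). RCOR3 had 40 and 34, against 20.9% and 25.9%, and in either 49 (66.2%, against 33.7%). The longer RCOR1 list, replicate 1, thus reached more of the genes, while the longer RCOR3 list, replicate 2, reached fewer. LSD1 had 11 and 3, against 9.95% and 5.53%, and in either 11 (14.9%, against 11.1%). Uninduced FLAG had 35 and 27, against 24.6% and 14.6%, and in either 42 (56.8%, against 30.7%).

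**Figure D1:**
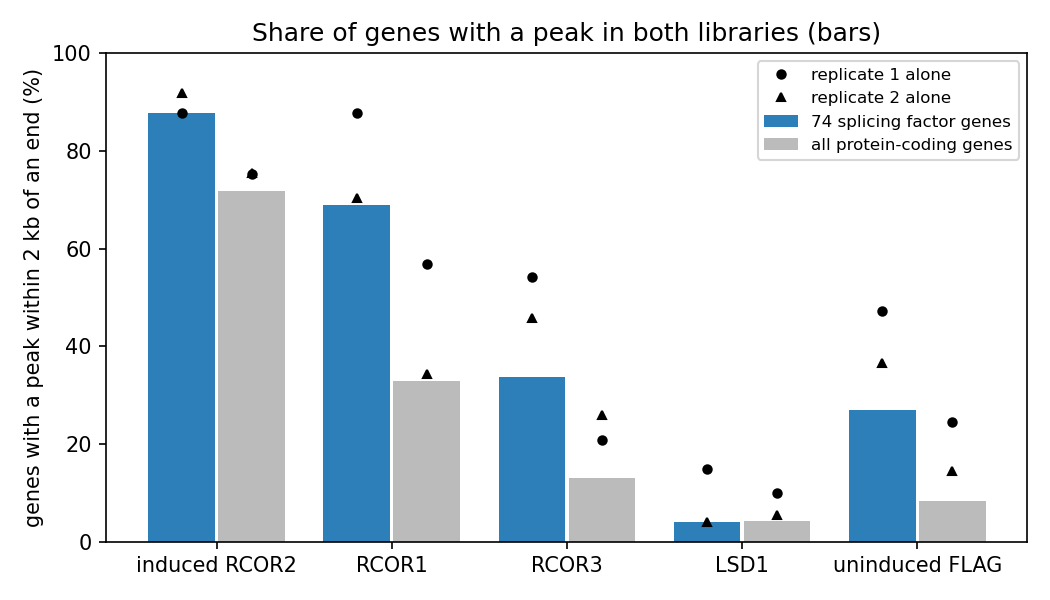
Share of genes with a peak in both libraries of a group, in percent, for the 74 splicing factor genes and for all 19974 protein-coding genes. The splicing factor bar is 87.8% for induced RCOR2, 68.9% for RCOR1 and 33.8% for RCOR3, each above the bar of all genes, and 4.05% for LSD1, beside 4.34%. Points give each library alone.

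The uninduced FLAG libraries held peaks at these genes too. In both uninduced libraries 20 of the 74 genes had a peak (27%), against 8.47% of all genes. At the 65 genes with induced RCOR2, 20 had a peak in both uninduced libraries (30.8%, against 11.7% of all genes with induced RCOR2), 22 had one in a single uninduced library (33.8%, against 30.3%) and 23 had none (35.4%, against 58%). Removing every induced peak that overlaps an uninduced one left 33 genes with induced RCOR2 in both libraries (44.6%), against 51.3% of all genes, so the share of splicing factor genes is then below that of all genes. The same removal left 20 genes for RCOR1 (27.0%, against 18.2% of all genes) and 9 for RCOR3 (12.2%, against 6.26%). Antibody background and transgene product made without doxycycline cannot be told apart in the uninduced libraries.

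The 20 genes with both uninduced peaks had induced RCOR2 peaks with a median fold of 22.1 and 42.5 in replicates 1 and 2. The 22 genes with 1 uninduced peak had medians of 13.6 and 16.2, and the 23 genes with none had 12.2 and 20.2. By these medians the genes with uninduced peaks in both libraries held the higher induced peaks in both replicates.

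CpG-rich promoters are common among splicing factor genes. A start is listed for 65 of the 74 genes, and 55 of these 65 have a promoter window with at least 55% G+C and a CpG observed over expected of at least 0.6 (84.6%), against 59.5% of 15812 protein-coding genes with a listed start. Within that class induced RCOR2 occupied 53 of 55 splicing factor genes (96.4%), against 93% of all such genes, a share near the background. RCOR1 occupied 40 (72.7%), against 45.7%, RCOR3 occupied 20 (36.4%), against 18.1%, and both uninduced libraries held a peak at 18 (32.7%), against 12%. LSD1 occupied 1 of the 55 (1.82%), against 4.64%.

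Gene ends often lie close together, and 36 of the 74 genes have the end of another protein-coding gene within 2 kb. HNRNPA2B1 lies beside CBX3, for example, and SRSF9 beside DYNLL1. A peak there cannot be assigned to a single gene. Among the 38 genes without such a neighbour induced RCOR2 occupied 33 (86.8%, against 63.2% of all genes without a neighbour), RCOR1 25 (65.8%, against 26.5%), RCOR3 10 (26.3%, against 9.79%) and LSD1 2 (5.26%, against 4.16%). Both uninduced libraries held a peak at 10 of the 38 (26.3%, against 6.51%).

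The 3 CoREST proteins were found together at many of these genes. RCOR2, RCOR1 and RCOR3 each had a peak in both libraries at 24 genes (32.4%), against 11.4% of all genes. These were HNRNPA0, HNRNPA1, HNRNPA2B1, HNRNPD, HNRNPH3, HNRNPLL, HNRNPR, HNRNPU, HNRNPUL1, PRPF3, PRPF38B, PRPF6, SF3B6, SNRPA, SNRPB2, SNRPC, SNRPD1, SRSF1, SRSF10, SRSF2, SRSF4, SRSF9, U2AF1L4 and U2AF2. The RCOR3 replicate 2 peak at U2AF1L4 lay at the far end, 4650 bp from the start. At 13 of them both uninduced libraries also held a peak (17.6% of the 74, against 3.51% of all genes). HNRNPR carried all 4 proteins, the single such gene of the 74 (1.35%, against 1.92% of all genes). No peak of any of the 10 libraries lay at 6 genes (8.11%, against 19.3%).

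**Figure D2:**
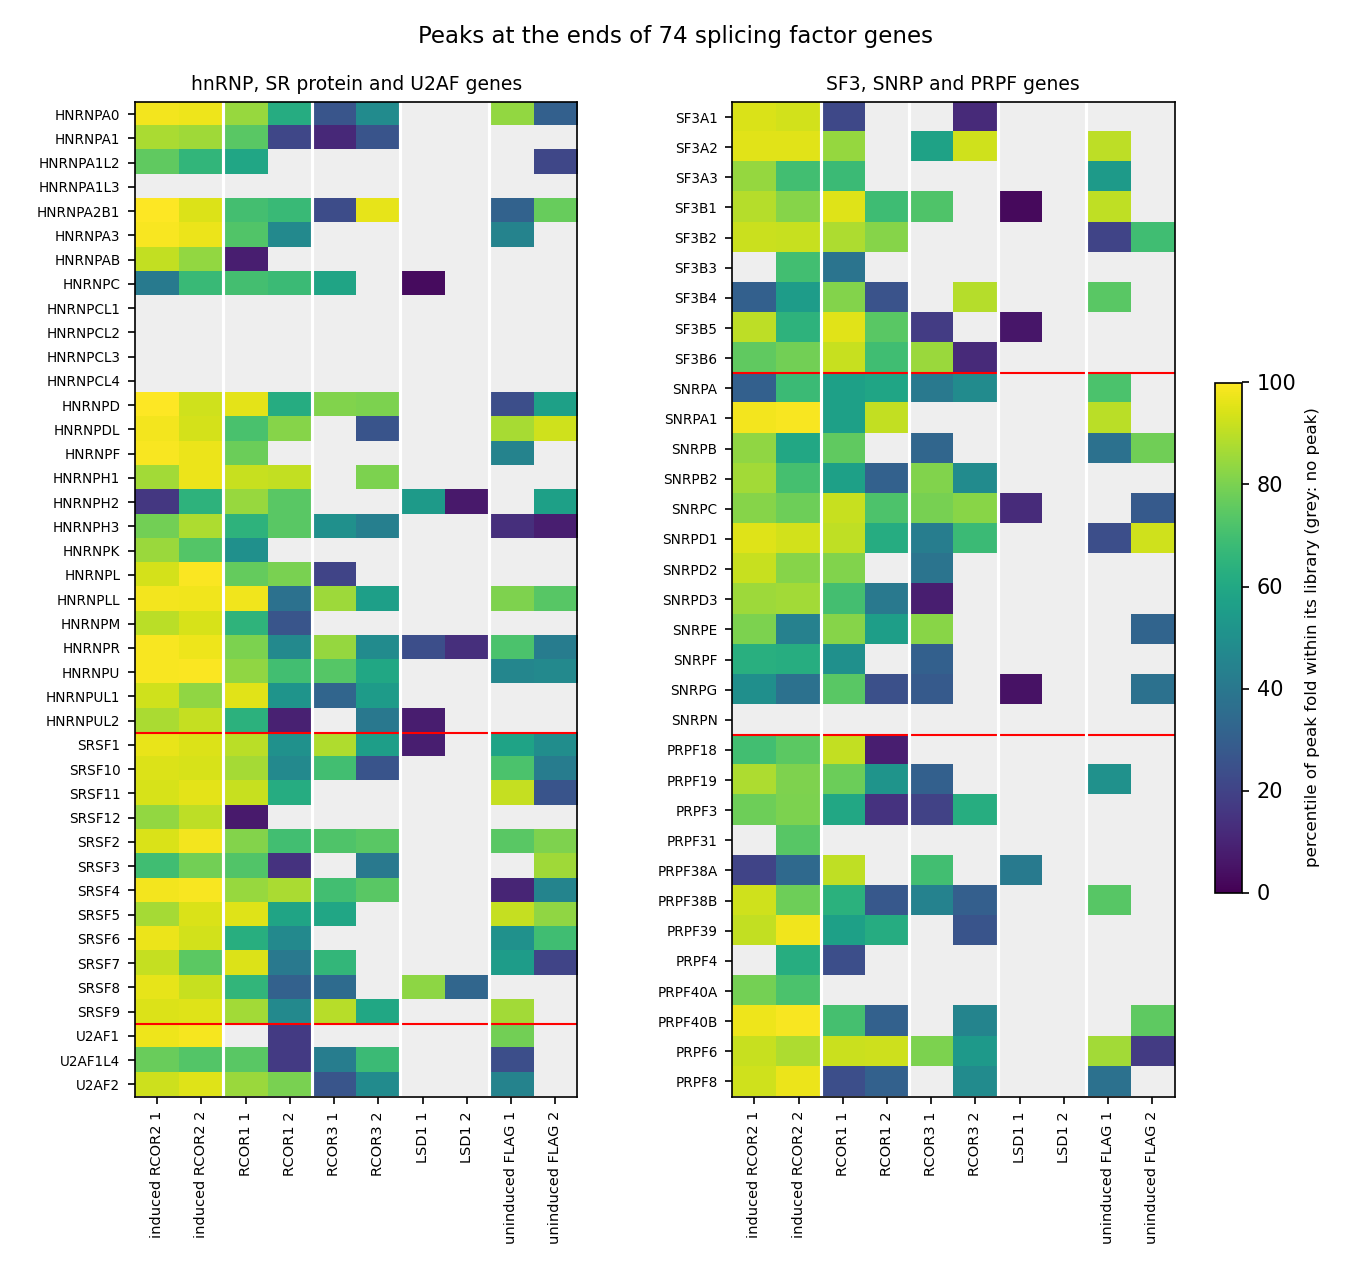
Percentile, within its own library, of the fold of the highest peak at each of the 74 splicing factor genes (rows, by family, in 2 panels) in each of the 10 libraries (columns), with grey for genes without a peak. The induced RCOR2 columns are filled at 65 and 68 genes and are mostly in the upper percentiles, with medians of 91.01 and 87.8, while the LSD1 columns are filled at 11 and 3.

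The hnRNP genes held the widest spread, with the highest RCOR2 ranks of the set and also 5 of its 6 genes without any peak. Induced RCOR2 occupied 21 of 26 (80.8%, against 71.8% of all genes), RCOR1 17 (65.4%, against 33%) and RCOR3 9 (34.6%, against 13.1%). LSD1 occupied 2 (7.69%, against 4.34%), and both uninduced libraries held a peak at 8 (30.8%, against 8.47%). HNRNPU encodes a nuclear scaffold protein that binds RNA and chromatin. Its highest peaks were 34.1- and 72.3-fold in the induced RCOR2 libraries, 7.77 and 6.14 in those of RCOR1, 5.69 and 5.66 in those of RCOR3, and 4.97 and 4.85 in the uninduced FLAG libraries, with no LSD1 peak. Both induced peaks stood at the 99.2nd percentile of their library. Their summits lay 1448 and 1297 bp downstream of the listed start.

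HNRNPD encodes AUF1, which binds AU-rich mRNAs and governs their decay. It had 49.2- and 37.7-fold peaks for induced RCOR2, 12.1 and 5.78 in the RCOR1 libraries, 6.14 and 6.72 in the RCOR3 libraries, and 4.28 and 5.19 for uninduced FLAG. It gave the highest induced value of the 74 genes in replicate 1, at the 99.9th percentile. Its paralog HNRNPDL, also on chromosome 4, had 28.5 and 39.8 for induced RCOR2, 6.37 and 6.83 for RCOR1, 4.48 in RCOR3 replicate 2 alone, and 6.999 and 8.02 for uninduced FLAG. The uninduced value of replicate 2 at HNRNPDL, shared with SNRPD1, was the highest of the 74 genes in that library.

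HNRNPLL, known for directing alternative splicing of the CD45 transcript in lymphocytes, had 27.3 and 57.4 for induced RCOR2 and 14.5 and 4.89 for RCOR1, with 6.58 and 5.48 for RCOR3 and 6.28 and 5.88 for uninduced FLAG. HNRNPA0, an AU-rich element binding protein, had 28.2 and 54.8 for induced RCOR2, 8.05 and 5.78 in the RCOR1 libraries, 4.07 and 5.22 in the RCOR3 libraries and 6.61 and 4.40 for uninduced FLAG. At both genes every group except LSD1 had a peak in each library. HNRNPA3, of the hnRNP A/B family, had 34.3 and 52.9 for induced RCOR2 and 6.54 and 5.25 for RCOR1, and 4.94 in uninduced replicate 1 alone. HNRNPF, which binds runs of G, had 31.0 and 52.6 for induced RCOR2, with 7.04 in RCOR1 replicate 1 and 4.94 in uninduced replicate 1 as its other peaks. Neither HNRNPA3 nor HNRNPF had an RCOR3 or LSD1 peak at its ends. HNRNPF has a further start inside the gene, where RCOR3 had 4.20 and 7.46 and RCOR1 had 3.88 and 5.25. Uninduced replicate 2 had 4.69 there, and LSD1 had no peak.

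HNRNPL, which binds CA repeats, and HNRNPM are hnRNP genes with induced RCOR2 and no uninduced peak within 2 kb. HNRNPL had 18.3 and 78.1 for induced RCOR2, 6.93 and 6.79 for RCOR1. Its 3.88 in RCOR3 replicate 1 lay at the far end, 12168 bp from the start. The 78.1 was the highest value of replicate 2 among the 74 genes and belongs to a peak at a second start inside the gene that reaches into the window. At that inner start induced replicate 1 had 33.2 and uninduced replicate 1 had 5.44, while the region over the main start had 18.3 and 38.8 for induced RCOR2. HNRNPM had 14.6 and 41.4 for induced RCOR2 and 5.93 and 4.65 for RCOR1. The absence of an uninduced peak at HNRNPL therefore holds for the gene-end window and not for the inner start.

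HNRNPH1, HNRNPH2, HNRNPC, HNRNPA1, HNRNPA1L2 and HNRNPUL1 were in the RCOR2-low list alone. HNRNPH1, which binds G runs, still had 12.2 and 54.2 for induced RCOR2, with 9.73 and 7.88 for RCOR1 and 6.72 in RCOR3 replicate 2. HNRNPUL1 had 17.4 and 20.2 for induced RCOR2, 12.0 and 5.33 in the RCOR1 libraries and 4.23 and 5.44 in the RCOR3 libraries. HNRNPA1, which silences exons, had 12.9 and 23.4 for induced RCOR2, 6.71 and 4.36 in the RCOR1 libraries and 3.53 and 4.48 in the RCOR3 libraries. None of these 3 had an uninduced peak at its ends, though at inner starts of HNRNPH1 the uninduced libraries had 5.06 and 4.25. HNRNPC, which binds runs of U, had 5.30 and 9.66 for induced RCOR2 and 6.30 and 6.02 for RCOR1, with 5.03 in RCOR3 replicate 1 and 2.16 in LSD1 replicate 1. HNRNPA1L2 had 8.45 and 9.16 for induced RCOR2, 5.46 in RCOR1 replicate 1 and 4.16 in uninduced replicate 2. It is close in sequence to HNRNPA1, so its value is uncertain.

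The 5 hnRNP genes without induced RCOR2 are HNRNPA1L3 and HNRNPCL1, HNRNPCL2, HNRNPCL3 and HNRNPCL4, which are near-identical copies of other genes, so values there are uncertain. They had no peak in any of the 10 libraries. Of these 5, the 3 with a listed start had between 40.3% and 45.3% G+C.

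The SR protein genes were occupied by induced RCOR2 without exception, 12 of 12, against 71.8% of all genes. Among all genes with a CpG-rich promoter window the share was 93%. RCOR1 occupied 11 (91.7%, against 33% of all genes), RCOR3 5 (41.7%, against 13.1%) and LSD1 1 (8.33%, against 4.34%). Both uninduced libraries held a peak at 8 of the 12 (66.7%, against 8.47%). SRSF4 had 27.4 and 68.6 for induced RCOR2, 8.05 and 7.35 in the RCOR1 libraries, 5.49 and 6.29 in the RCOR3 libraries, and 3.81 and 4.76 for uninduced FLAG. SRSF2, the SR protein long used as a marker of nuclear speckles, had 19.4 and 61.0 for induced RCOR2, 7.59 and 6.14 in the RCOR1 libraries, 5.56 and 6.29 in the RCOR3 libraries and 5.91 and 6.23 for uninduced FLAG. SRSF6 had 24.3 and 39.3 for induced RCOR2, 5.70 and 5.25 for RCOR1 and 5.06 and 5.66 for uninduced FLAG, with no RCOR3 peak. All 3 genes had peaks in both uninduced libraries.

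SRSF5 was in the RCOR2-low list alone, with 12.4 and 42.9 for induced RCOR2, 11.7 and 5.75 for RCOR1, 5.10 in RCOR3 replicate 1 and 7.69 and 6.54 for uninduced FLAG. Its induced summits lay 636 and 657 bp downstream of the start. At SRSF1, an SR protein with roles in both splicing and translation, the highest induced peaks of 23.7 and 44.6 lay at the far end of the gene, 19119 and 19085 bp from the start, beside VEZF1. At its own start SRSF1 had 18.3 and 20.7 for induced RCOR2, 9.16 and 5.31 in the RCOR1 libraries, 6.92 and 5.44 in the RCOR3 libraries, 3.10 in LSD1 replicate 1 and 5.33 and 4.85 for uninduced FLAG.

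The genes of the SF3 complexes, which hold the U2 snRNP at the branch point, had induced RCOR2 at 8 of 9 (88.9%, against 71.8% of all genes). RCOR1 was at 5 (55.6%, against 33%), RCOR3 at 2 (22.2%, against 13.1%) and LSD1 at none (against 4.34%). Both uninduced libraries held a peak at 1 (11.1%, against 8.47%). SF3B2 had 16.6 and 34.6 for induced RCOR2, 8.65 and 6.83 for RCOR1, no RCOR3 peak and 4.24 and 5.66 for uninduced FLAG. It is the SF3 gene with a peak in both uninduced libraries, but the 5.66 of replicate 2 lay at the far end, 18401 bp from the start. SF3A1 had 19.6 and 38.8 for induced RCOR2, 3.99 in RCOR1 replicate 1, 4.05 in RCOR3 replicate 2, at the far end 26592 bp from the start, and none for uninduced FLAG. SF3B3 had an induced peak in replicate 2 alone, 10.4, and 4.56 in RCOR1 replicate 1.

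SNRP genes encode the Sm proteins and the proteins particular to single snRNPs. Induced RCOR2 occupied 11 of 12 (91.7%, against 71.8% of all genes), RCOR1 8 (66.7%, against 33%) and RCOR3 4 (33.3%, against 13.1%). LSD1 occupied none (against 4.34%), and both uninduced libraries held a peak at 2 (16.7%, against 8.47%). SNRPA1, a U2 snRNP protein, stood apart from its family with 28.8 and 68.0 for induced RCOR2, 5.37 and 7.88 for RCOR1 and 7.39 in uninduced replicate 1. The family medians were 10.9 and 10.6, the lowest of the 6 families in both replicates. SNRPC, a U1 snRNP protein, had 10.4 and 14.4 for induced RCOR2, 9.73 and 6.30 in the RCOR1 libraries, 6.10 and 6.79 in the RCOR3 libraries, 3.54 in LSD1 replicate 1 and 4.26 in uninduced replicate 2. SNRPD1, a core Sm protein, had 20.5 and 39.3 for induced RCOR2, 9.39 and 5.78 in the RCOR1 libraries, 4.52 and 5.97 in the RCOR3 libraries and 4.28 and 8.02 for uninduced FLAG.

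U2AF2 and U2AF1 encode the large and small subunits of U2AF, which bind the polypyrimidine tract and the AG at the acceptor site. U2AF2 had 17.1 and 45.2 for induced RCOR2, 8.05 and 6.79 in the RCOR1 libraries, 4.07 and 5.22 in the RCOR3 libraries and 4.94 in uninduced replicate 1. U2AF1 had 24.9 and 66.5 for induced RCOR2, among the 10 highest, with 4.20 in RCOR1 replicate 2 and 6.22 in uninduced replicate 1. Unlike U2AF2, U2AF1 was in neither the RCOR2-high nor the RCOR2-low list. The build holds a near-identical copy of U2AF1, so its peaks are uncertain.

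PRPF genes encode, among others, proteins of the U4/U6.U5 tri-snRNP and the PRP19 complex. Induced RCOR2 occupied 10 of 12 (83.3%, against 71.8% of all genes), RCOR1 8 (66.7%, against 33%) and RCOR3 3 (25%, against 13.1%). LSD1 occupied none (against 4.34%), and both uninduced libraries held a peak at 1 (8.33%, against 8.47%). PRPF40B, related to a yeast U1 snRNP protein, had 25.5 and 69.7 for induced RCOR2, 6.33 and 4.73 for RCOR1, 5.22 in RCOR3 replicate 2 and 5.97 in uninduced replicate 2. Its mean induced fold was 47.6, against 17.3 with 500 bp windows and 27.2 when all its peaks were averaged. PRPF6, which bridges the U5 and U4/U6 particles, had 16.5 and 27.0 for induced RCOR2, 9.87 and 8.27 in the RCOR1 libraries, 6.13 and 5.43 in the RCOR3 libraries and 6.92 and 3.94 for uninduced FLAG, the 3.94 at the far end, 50050 bp from the start. Its RCOR1 pair was the highest of the 74 genes by the lower of the 2 percentiles. PRPF39, a U1-associated protein, had 15.5 and 58.5 for induced RCOR2, 5.37 and 5.78 for RCOR1, 4.48 in RCOR3 replicate 2 and none for uninduced FLAG.

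PRPF19, the ubiquitin ligase of the PRP19 complex, and PRPF3, a U4/U6 protein, were in the RCOR2-low list alone. PRPF19 had 13.3 and 17.01 for induced RCOR2, 7.04 and 5.33 for RCOR1, 4.20 in RCOR3 replicate 1 and 5.06 in uninduced replicate 1. PRPF3 had 8.94 and 16.9 for induced RCOR2, 5.57 and 4.16 in the RCOR1 libraries and 3.86 and 5.86 in the RCOR3 libraries. PRPF31 and PRPF4 were the PRPF genes without induced RCOR2 in both libraries. PRPF31 had 12.2 in replicate 2 and no other peak, 18158 bp from its start and 1989 bp beyond its end, just inside the window, while the nearest replicate 1 peak lay 5998 bp off. PRPF4 had 8.51 in replicate 2 and 4.03 in RCOR1 replicate 1.

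LSD1 occupied 3 of these genes in both libraries (4.05%, against 4.34% of all genes), a share near the background. SRSF8, an SR protein gene related to SRSF2, had LSD1 peaks of 8.41 and 5.09 beside 22.4 and 34.6 for induced RCOR2, 6.01 and 4.73 for RCOR1 and 4.33 in RCOR3 replicate 1, and no uninduced peak. HNRNPR had LSD1 peaks of 4.37 and 3.97 beside 33.2 and 56.4 for induced RCOR2, 7.38 and 5.25 in the RCOR1 libraries, 6.46 and 5.22 in the RCOR3 libraries and 5.83 and 4.72 for uninduced FLAG. HNRNPH2 had 5.74 and 3.20 for LSD1, with 4.34 and 9.04 for induced RCOR2, 8.05 and 6.30 for RCOR1 and 5.19 in uninduced replicate 2.

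At SRSF8 the LSD1 peaks spanned chr11:95068546-95068906 and chr11:95068615-95068936, with summits 1841 and 1859 bp downstream of the start. The summits of the highest induced RCOR2 peaks lay 450 and 580 bp downstream. Lower induced RCOR2 peaks, of 6.16 and 4.58, lay with the LSD1 peaks at the RCOR2-low region chr11:95068623-95068914. The highest RCOR1 and RCOR3 peaks of replicate 1 had summits 1853 and 1866 bp downstream, while that of RCOR1 replicate 2 lay 241 bp downstream. At HNRNPR the LSD1 peaks spanned chr1:23345220-23345652 and chr1:23345315-23345633, 1188 and 1181 bp upstream, while the RCOR2 summits lay 62 bp downstream and 409 bp upstream. At HNRNPH2 the LSD1 peaks spanned chrX:101408066-101408690 and chrX:101407630-101407895, 58 and 346 bp upstream. No LSD1 replicate 2 peak overlapped the highest induced RCOR2 peak at these 3 genes, while LSD1 replicate 1 overlapped that of induced replicate 1 at 6 of the 11 genes where it had a peak. Such overlap was not counted over all genes. The LSD1 peaks ranked at the 83.1st and 33.1st percentiles of their libraries at SRSF8, at the 54.6th and 6.81st at HNRNPH2 and at the 24.2nd and 13.5th at HNRNPR. A further 8 genes, HNRNPC, HNRNPUL2, PRPF38A, SF3B1, SF3B5, SNRPC, SNRPG and SRSF1, had an LSD1 peak in replicate 1 alone, between 2.02- and 5.09-fold.

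The deposited RCOR2-high and RCOR2-low lists divided the families. An RCOR2-high region lay at 35 of the 74 genes (47.3%), against 31.6% of all genes, and an RCOR2-low region at 36 (48.6%), against 27.2%. Among genes with a CpG-rich promoter window, a high region lay at 30 of 55 (54.5%), against 47.2% of all such genes, which is nearer the background. A low region lay at 28 of the 55 (50.9%), against 32.6%. Of the 74, 25 had a high region alone (33.8%, against 25.1%), 26 a low region alone (35.1%, against 20.8%), 10 had both (13.5%, against 6.45%) and 13 had neither (17.6%, against 47.6%). Among SR protein genes 9 of 12 had a high region, and among hnRNP genes 14 of 26. A low region alone marked 8 of 12 SNRP genes and 6 of 9 SF3 genes.

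**Figure D3:**
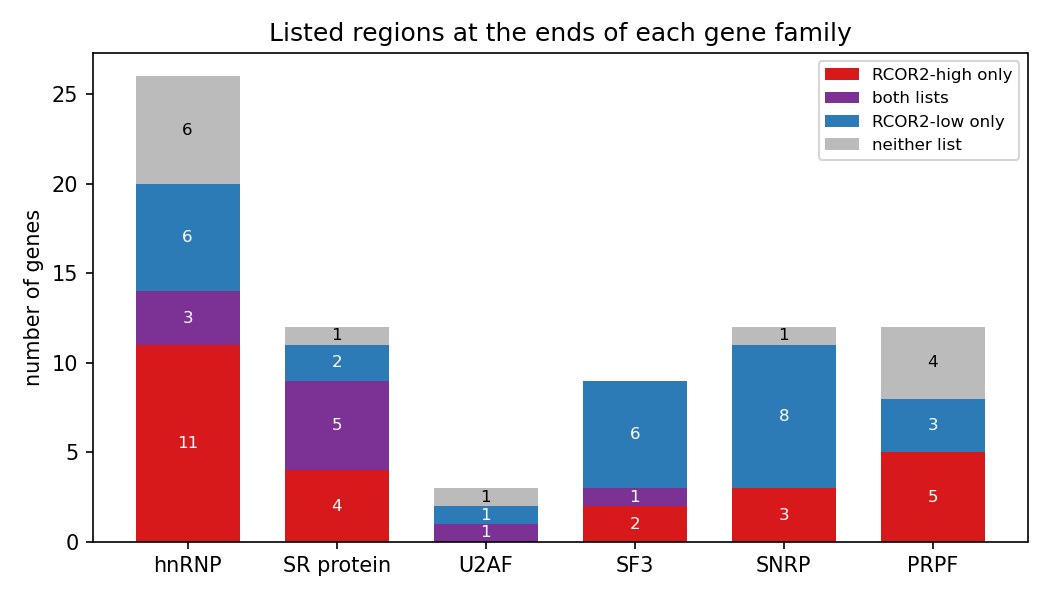
Number of genes in each splicing factor family with an RCOR2-high region alone, regions of both lists, an RCOR2-low region alone or neither at their ends, as stacked bars. High regions make up the larger part of the SR protein and hnRNP bars (9 of 12 and 14 of 26 with both-list genes counted), and low regions alone the larger part of the SNRP and SF3 bars (8 of 12 and 6 of 9).

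Peak levels followed the lists, which hold no values of their own and whose definition the labels do not state. Genes with a high region alone had medians of 19.4 and 47.6 for induced RCOR2 in replicates 1 and 2, with ranges of 9.37 to 49.2 and of 12.6 to 78.1. Genes with a low region alone had, where a peak was present, medians of 9.89 and 10.5, with ranges of 4.34 to 17.4 and of 5.32 to 54.2. The ranges overlap in both replicates. Because the lists are named for RCOR2 and may rest on the same libraries, this is a description and not a test.

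Some genes went against the order of their list. HNRNPH1 and SRSF5, with 54.2 and 42.9 in replicate 2, had a low region alone, at chr5:179634044-179635131 and chr14:69766756-69768028. At U2AF2 the low region, chr19:55653184-55655852, covers the start and holds the higher peaks of 17.1 and 45.2, while the high region, chr19:55674636-55675691, lies at the other end and holds 12.2 and 37.7. At HNRNPR the low region is 287 bp long and lies beside a high region of 2044 bp, and at SRSF4 a low region of 188 bp lies beside a high region of 1130 bp.

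**Figure D4:**
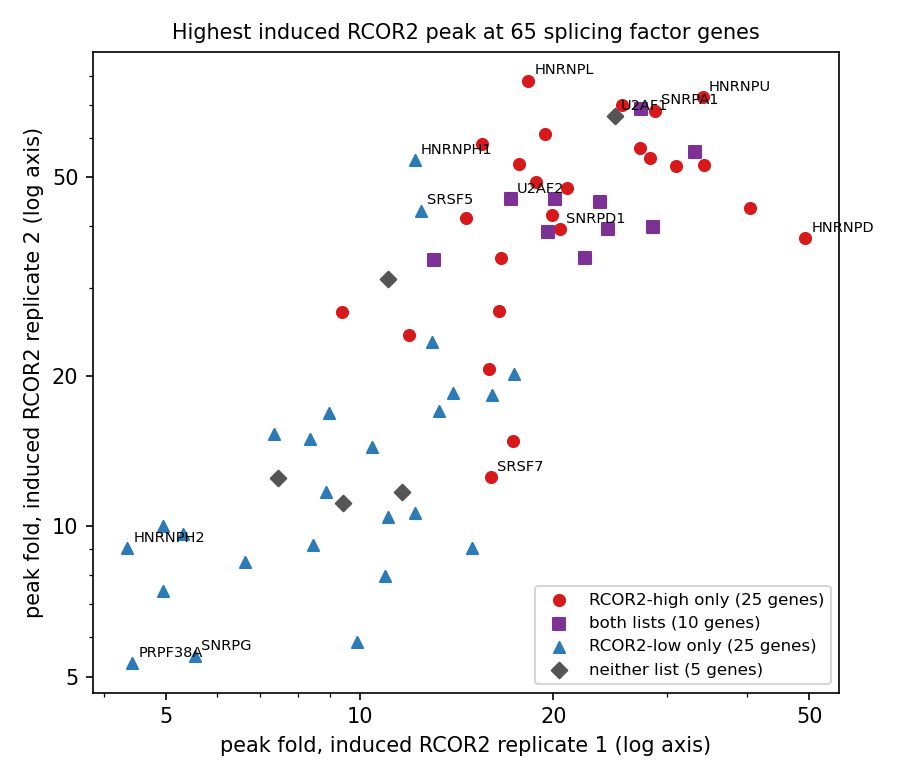
Fold enrichment of induced RCOR2 in replicate 2 against replicate 1 for each splicing factor gene with a peak in both, coloured by RCOR2-high and RCOR2-low membership. Genes with a high region alone have medians of 19.4 and 47.6 and those with a low region alone 9.89 and 10.5, with overlap between them.

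Families also differed in the level of induced RCOR2. Over genes with a peak, SR protein genes had median induced RCOR2 folds of 19.6 and 42.5 in replicates 1 and 2, hnRNP genes 17.4 and 39.8, U2AF genes 17.1 and 45.2, SF3 genes 14.5 and 14.95, PRPF genes 14.4 and 15.8 and SNRP genes 10.9 and 10.6. Over all splicing factor genes with a peak the medians were 15.9 and 26.9, at the 91.01st and 87.8th percentiles, against 12.7 and 22.9 over all genes with a peak, at the 86.98th and 85.3rd.

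Peaks sat at the start of the gene in most cases. Of the splicing factor genes with a listed start and a peak, the highest induced RCOR2 peak lay within 500 bp of a start at 47 of 59 in replicate 1 (79.7%, against 72.2% of all genes) and at 49 of 61 in replicate 2 (80.3%, against 75.5%). For RCOR1 the counts were 55 of 59 (93.2%, against 68%) and 39 of 47 (83%, against 75.7%). For RCOR3 they were 30 of 36 (83.3%, against 70.3%) and 25 of 29 (86.2%, against 70.4%). The median RCOR1 summit lay 95 and 77 bp upstream of the start and the median RCOR3 summit 64 and 42 bp upstream, whereas the induced RCOR2 median was 41 bp downstream in replicate 1 and 56 bp upstream in replicate 2. All genes had the same pattern. Their medians were 77 and 63 bp upstream for RCOR1, 75 and 57 bp upstream for RCOR3, and 33 bp downstream and 19 bp upstream for induced RCOR2.

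Between the 2 libraries of a protein, peak widths differed most for RCOR1. The median peak at these genes spanned 1019 and 845 bp for induced RCOR2, 702 and 185 bp for RCOR1, 165.5 and 155.5 bp for RCOR3 and 260 and 241 bp for uninduced FLAG. Over all genes with a peak the medians were 780 and 795 bp, 531 and 193 bp, 189 and 180 bp and 264 and 234 bp, in the same order. RCOR1 replicate 1, which had the longer list, thus had the wider RCOR1 peaks at these genes and over all genes. The induced RCOR2 peaks of the 2 replicates overlapped at 61 of 65 genes, with a median of 123 bp between summits. The induced and uninduced peaks of replicate 1 overlapped at 30 of the 35 genes with both, and those of replicate 2 at 24 of 27. Induced RCOR2 and RCOR1 overlapped at 55 of 63 genes in replicate 1 and at 48 of 52 in replicate 2. Overlaps were counted at splicing factor genes only, so they are not shown to be particular to these genes.

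**Figure D5:**
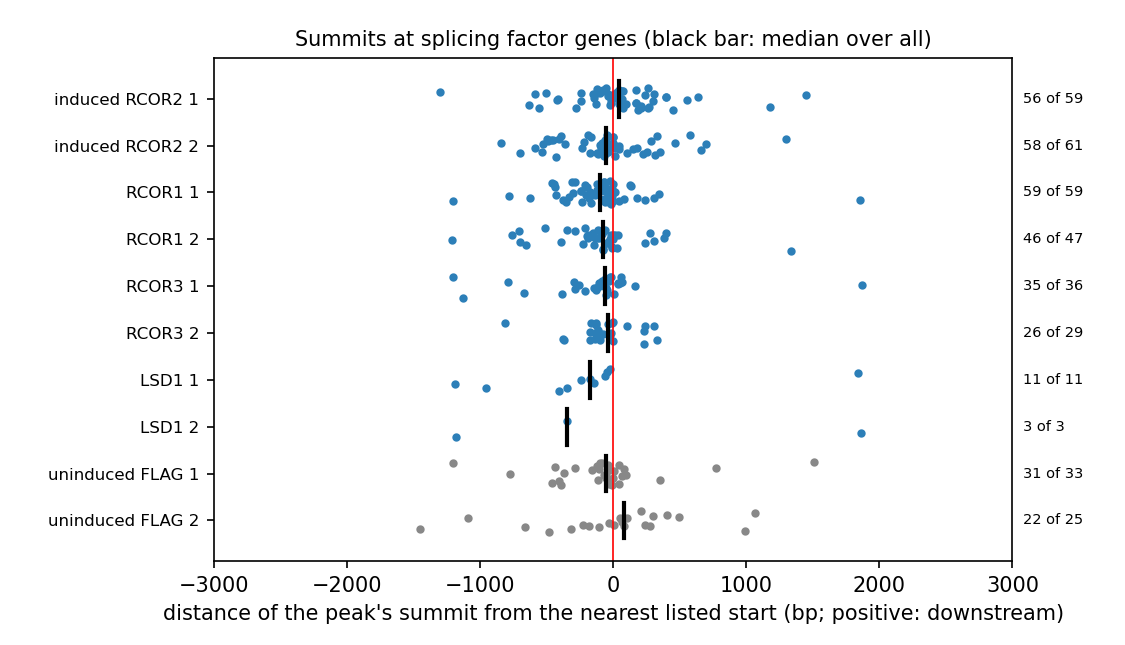
Distance in bp of the summit of the highest peak from the listed start of each splicing factor gene, negative upstream, by library, with a black bar at the median over all summits and the number of summits drawn within the axis at the right. Medians are 41 bp downstream and 56 bp upstream in the induced RCOR2 libraries and 95 and 77 bp upstream in the RCOR1 libraries, and the 3 LSD1 replicate 2 summits are spread. Over all genes, not drawn, the medians are 33 bp downstream and 19 bp upstream for induced RCOR2 and 77 and 63 bp upstream for RCOR1.

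The far end of the gene held the highest induced RCOR2 peak at 3 of 59 genes in replicate 1 and at 3 of 61 in replicate 2. The same count was not made over all genes. PRPF8, the U5 protein at the heart of the spliceosome, is counted in both replicates, as SRSF1 is. Its far-end peaks of 17.7 and 53.2 lay 36083 and 35927 bp from the start, beside RILP, and its start had 17.7 and 20.7, so the far end was the higher in replicate 2 and level with the start in replicate 1.

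Promoter composition differed with occupancy. The median G+C was 62% over the 65 genes with a listed start, against 62.7% of all genes, while the median CpG observed over expected was 0.932, against 0.762. Genes with an RCOR2-high region had medians of 66.5% and 1.00, and genes with a low region alone 59% and 0.876. The 4 genes with a start and no peak at their ends had medians of 43.5% and 0.317. They are HNRNPCL1, HNRNPCL2 and HNRNPCL4, near-identical copies with uncertain values, and SNRPN, which had induced RCOR2 peaks of 11.4 and 8.51 at inner starts. The range over all 65 was 0.262 to 1.23 in CpG observed over expected, and the lowest value belongs to HNRNPCL1.

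The 9 motifs were searched on both strands by exact letters. The ETS motif CCGGAAG, which reads CTTCCGG on the other strand as in the SNRPA1, SRSF4, PRPF6 and HNRNPD windows above, was in 21 of 65 windows (32.3%), against 14.1% of all 15812. Within the CpG-rich class it was in 20 of 55 (36.4%), against 19.8%. It was in 7 of 11 SNRP windows and 6 of 8 SF3 windows, and in 3 of 23 hnRNP windows. The CCAAT box, CCAAT or ATTGG, was in 29 windows (44.6%, against 36.4%), 16 of them hnRNP. In the HNRNPU window its 2 matches overlap as CCAATTGG.

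The E-box CACGTG was in 8 windows (12.3%, against 8.82%), a share near the background. Of the 8, 7 are hnRNP genes, out of 23 with a window: HNRNPA3, HNRNPD, HNRNPDL, HNRNPH2, HNRNPH3, HNRNPM and HNRNPUL1, and the other is SF3B1. The GC box GGGCGG was in 38 windows (58.5%, against 58.3%), and within the CpG-rich class in 33 of 55 (60%), against 81.5%. The NRF1 motif GCGCATGC was in 4 windows (6.15%, against 4.28%), the YY1 motif AAGATGGCG in 3 (4.62%, against 2.69%), the TATA box TATAAA in 5 (7.69%, against 9.75%) and the REST core TCAGCACC in 2, PRPF19 and SRSF11 (3.08%, against 1.69%). The cAMP response motif TGACGTCA was in none of the 65, against 2.56% of all windows. The matches are descriptions of letters and say nothing of which factor binds.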

How the data were processed

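ChIP-seq peak lists of 10 libraries in 5 groups were used. The submitters' processing notes name BWA 0.7.17, MACS2, deepTools and the build GRCh38. The authors called peaks per library, and every peak carries a fold, a ratio deposited as their peak caller wrote it. A −log10 q-value per peak was deposited too, and its lower limit in each list corresponds to 0.05. Control library, duplicate handling and the definition of the 2 further deposited lists, RCOR2-high and RCOR2-low, which hold positions alone: not given in the sources used here. Read depth is unknown. Replicate numbers follow the labels.

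Peaks on chromosomes 1 to 22 and X were joined (overlap of 1 bp) to windows of 2 kb around either end of RefSeq protein-coding genes of GRCh38 with Python 3.11.15 and pandas 2.3.3, checked on simulated data. Promoter sequences and listed starts come from RefSeq (GRCh38.p14). The table of starts lists 65 of the 74 genes. Distances are from the summit to the nearest listed start. CpG observed over expected is the CpG count relative to that given by the C and G content.

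The members and lists were chosen with earlier results of these data known. Genes were named by a rule: the 10 highest for induced RCOR2 by the lower of the libraries' 2 percentiles, the 5 highest each for RCOR1, RCOR3, uninduced FLAG, and induced RCOR2 without an uninduced peak, all genes with LSD1 in both libraries, all without induced RCOR2 in both, and the first 8 by symbol with a low region alone. PRPF8, SRSF1, SNRPD1, the genes of other lists and those given by name alone were added after their values were seen. Alternatives were a 500 bp window, starts only, merged regions, either library, the top 10253 peaks per library, peaks above each library's median score, removal of peaks that overlap uninduced FLAG peaks, and each replicate alone.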

Additional observations from a re-analysis of the deposited data

How the results depend on the processing

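The counts of RCOR2-high (31 to 35 genes) and RCOR2-low (29 to 36) stayed within 1.5 times of the main counts under each alternative run for them. With the top 10253 peaks of each library by −log10 q, induced RCOR2 occupied 33 genes (44.6%, against 31.8% of all genes), RCOR1 21 (28.4%, against 10.7%), RCOR3 5 (6.76%, against 4.37%), LSD1 1 (1.35%, against 2.2%) and uninduced FLAG 13 (17.6%, against 5.64%). With peaks above each library's median score, RCOR1 occupied 22 genes (29.7%, against 15.2% of all genes), RCOR3 7 (9.46%, against 4.12%), LSD1 0 (against 2.09%) and uninduced FLAG 5 (6.76%, against 2.02%). Without peaks that overlap an uninduced one, induced RCOR2 occupied 33 (44.6%, against 51.3% of all genes), RCOR1 20 (27.0%, against 18.2%) and RCOR3 9 (12.2%, against 6.26%). As merged regions RCOR3 occupied 15 (20.3%, against 10.6%) and uninduced FLAG 13 (17.6%, against 5.77%). With a peak in either library the counts were 49 for RCOR3 (66.2%, against 33.7%), 11 for LSD1 (14.9%, against 11.1%) and 42 for uninduced FLAG (56.8%, against 30.7%). With 500 bp windows LSD1 occupied 1 gene (1.35%, against 2.12%). With a single library in place of both, the counts ran from 65 to 68 for induced RCOR2, 52 to 65 for RCOR1, 34 to 40 for RCOR3, 3 to 11 for LSD1 and 27 to 35 for uninduced FLAG. A single library, a stricter score or fewer peaks changes by construction how many genes can be called. Of 115 alternative mean folds of the named genes, single libraries left out, 8 fell by over 1.5 times, at 6 genes. With 500 bp windows the induced RCOR2 mean was 17.3 for PRPF40B (47.6 as reported), 28.5 for HNRNPL (48.2) and 11.5 for HNRNPUL1 (18.8). With peaks averaged it was 27.2 for PRPF40B, 25.2 for HNRNPL, 22.6 for HNRNPR (44.8), 16.9 for SRSF8 (28.5) and 11.8 for HNRNPA1 (18.2). No paired analysis was possible because each count uses both libraries of a group and comes from no test. Depth is unknown, so a gene without a peak is not shown to lack the protein.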

Other observations

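Other genes of splicing were taken from lists of named genes. Of 119 such genes induced RCOR2 occupied 107 (89.9%, against 71.8% of all genes), RCOR1 68 (57.1%, against 33%), RCOR3 31 (26.1%, against 13.1%) and LSD1 10 (8.4%, against 4.34%), and both uninduced libraries held a peak at 18 (15.1%, against 8.47%). SNRNP70, the U1 snRNP protein named outside the SNRP symbols, had 49.2 and 56.4 for induced RCOR2, 7.38 and 5.25 in the RCOR1 libraries, 4.36 and 5.22 in the RCOR3 libraries and 4.24 and 5.19 for uninduced FLAG. SRPK1, a kinase that phosphorylates SR proteins, had 25.4 and 77.6 for induced RCOR2 and 8.05 and 7.35 for RCOR1. It also had 1.98 in LSD1 replicate 1 and 5.06 in uninduced replicate 1. SRPK2 had no peak of any library within 2 kb of its ends. Of 13 genes for snRNP assembly, 12 carried induced RCOR2 (92.3%, against 71.8% of all genes), 11 RCOR1 (84.6%, against 33%), 4 RCOR3 (30.8%, against 13.1%) and 3 LSD1 (23.1%, against 4.34%), and both uninduced libraries held a peak at 2 (15.4%, against 8.47%). GEMIN6, of the SMN complex, had LSD1 peaks of 5.57 and 6.89 beside 5.27 and 5.87 for induced RCOR2.

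Of 18 neuronal splicing regulators, 17 carried induced RCOR2 (94.4%, against 71.8% of all genes), 8 RCOR1 (44.4%, against 33%), 3 RCOR3 (16.7%, against 13.1%) and 1 LSD1 (5.56%, against 4.34%), the RCOR3 and LSD1 shares being near the background. Both uninduced libraries held a peak at 3 (16.7%, against 8.47%). ELAVL3, a neuronal RNA-binding protein, had 46.7 and 82.7 for induced RCOR2, 8.39 and 6.77 for RCOR1, 6.72 in RCOR3 replicate 2, 2.33 in LSD1 replicate 1 and 5.06 and 4.21 for uninduced FLAG. SRRM4, which drives inclusion of neuronal microexons, was the neuronal gene with LSD1 in both libraries, 5.11 and 4.73, beside 18.5 and 21.3 for induced RCOR2. CELF2 was the one without induced RCOR2 at its ends. Starts inside the genes of these other lists were not examined.

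SNRPN encodes the neuronal Sm protein SmN from an imprinted locus and had no peak within 2 kb of its ends, but it has 4 listed starts inside the gene. At these, induced RCOR2 had 11.4 in replicate 1, at chr15:24956313-24956826, and 8.51 in replicate 2, at chr15:24954842-24955176, and RCOR1 had 4.36 in replicate 1. The 2 induced peaks do not overlap. Among the 6 genes with inner starts, HNRNPF had 37.6 and 71.2 for induced RCOR2 at its inner start and SRSF11 had 27.1 and 55.8. Uninduced FLAG had 4.69 in replicate 2 at the inner start of HNRNPF and 6.22 in replicate 1 at that of SRSF11.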
